A study of Mus musculus with 11 samples.

Results

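The 9 genes described here encode the stacked scaffold proteins of the excitatory synapse: Shank1, Shank2, Shank3, Dlgap1, Dlgap2, Dlgap3, Dlgap4, Dlg2 and Dlg4. They are the 9 rows with these symbols among the 30986 gene rows of a table that counts RNA fragments recovered with FMRP, and all 9 passed the filter on low counts that left 1720 rows for testing. FMRP is the RNA-binding protein whose loss causes Fragile X syndrome. The tissue was cerebellum (2 samples), cortex (3 samples) or hippocampus (4 samples) of mice at postnatal day 13, ground in liquid nitrogen and crosslinked by ultraviolet light (3 doses of 400 mJ at 254 nm) before FMRP was immunoprecipitated. The strain, sex and genotype of the mice, any pooling, and whether the samples of a region came from separate animals are not given by the labels. The p-values therefore measure the spread between these samples, which may be technical. In the main fit that spread was taken from all tested rows together, and hardly from each gene's own samples.

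At an excitatory synapse the membrane-associated guanylate kinases of the Dlg family lie beneath the membrane and hold glutamate receptors and adhesion molecules. Dlgap proteins bind the guanylate kinase domain of Dlg proteins from below, and Shank proteins bind the Dlgap proteins in turn and reach the actin cytoskeleton through further partners. The mRNAs of several of these scaffolds are known FMRP targets in mouse brain, and FMRP is best known there as a repressor of translation of the mRNAs it binds.

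The count table gives 1 number per gene and sample, so where on an mRNA the fragments lay is not known from it. Short letter runs that crosslinking studies in human cells have linked to FMRP are AGGA or TGGA and ACTG or ACTT (DNA letters). To show the kind of sequence concerned, the 60 coding bases inside 1 exon with the most of these runs on the sense strand are given 5′ to 3′ for the most abundant member (Shank1) and for the 3 members with the lowest p in the first comparison below (Dlgap2, Dlgap4 and Dlg4). Capitals mark the runs, which can overlap, as in ACTGGA. The letters come from the GENCODE vM21 transcripts and the positions from its GRCm38 annotation, all on the + strand.
Shank1: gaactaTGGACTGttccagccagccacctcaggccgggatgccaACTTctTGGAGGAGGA
Dlgap2: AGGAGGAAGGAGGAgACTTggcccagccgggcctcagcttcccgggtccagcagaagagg
Dlgap4: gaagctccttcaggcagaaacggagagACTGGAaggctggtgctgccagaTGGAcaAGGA
Dlg4: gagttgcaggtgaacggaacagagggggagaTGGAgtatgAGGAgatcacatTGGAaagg
The Shank1 window lies in exon 3 at chr7:44313208-44313267 and holds 6 runs. The Dlgap2 window, in exon 4 at chr8:14695115-14695174, holds 5, the Dlgap4 window, in exon 10 at chr2:156749268-156749327, holds 4, and the Dlg4 window, in exon 6 at chr11:70030595-70030654, holds 3. Each window is the richest of its own coding sequence by choice. Among 102055 consecutive tiles of 60 coding bases from 1640 tested genes, 74.8% hold at least 1 such run, 0.453% at least 6, 1.69% at least 5, 5.85% at least 4 and 17.2% at least 3. Over whole coding sequences, AGGA or TGGA occurred 13.5 (Dlg4) to 19.5 (Dlgap2) times per coding kilobase, against a median of 16.03 over the 1640 genes. ACTG or ACTT occurred 4.61 (Shank1) to 8.71 (Dlg2) times per coding kilobase, against a median of 8.20, and Dlg2 alone among the 9 lay above that median. These are letter matches and not measured binding sites.

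Library totals ran from 11898 counts (cortex 3) to 197382 (cerebellum 2). Counts were scaled to CPM, counts per 1000000 of the library total, on which 10 counts stand for 840.5 CPM in cortex 3 and for 50.7 CPM in cerebellum 2. In cortex 3, hippocampus 3 and hippocampus 4 only 34.1%, 29.0% and 33.6% of the counts fell on tested rows, against 47.2% to 62.1% in the other samples. Results that turn on these 3 samples are given with and without them. For that reason levels are also given as CPM divided by the TMM factor (0.644 in hippocampus 3 to 1.31 in hippocampus 5), which sets the samples to a common level over the tested rows, and as shares within the 9 genes, which need no library scale. Cerebellar granule cell markers summed to 6089.7 and 7490.5 CPM in cerebellum and to 227.9 to 882.4 CPM in the forebrain samples (cortex and hippocampus together), and 4 of 4 tested markers were higher in cerebellum. Of 6 tested markers of telencephalic excitatory neurons, 5 were lower in cerebellum, where the list summed to 83.8 and 217.9 CPM, against 1176.7 to 3204.7 CPM in forebrain. In bulk tissue fewer cells of a type and less RNA per cell cannot be told apart, and with no input library used here neither can the amount of an RNA and its binding.

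None of the 9 scaffold genes differed between regions past an adjusted p of 0.05 in any of 4 comparisons. Of all 1720 tested rows, 7.67% passed for cerebellum against forebrain, 4.59% for cerebellum against cortex, 6.4% for cerebellum against hippocampus and 0% for cortex against hippocampus, by edgeR's quasi-likelihood test with Benjamini-Hochberg adjustment over all tested rows. At an unadjusted p under 0.05, Dlgap2, Dlgap4 and Dlg4, 3 of 9, had lower values in cerebellum than in forebrain, beside 18% of all tested rows in either direction. Against cortex 2 of 9 had such a p (14.4% of tested rows), against hippocampus 3 of 9 (16.9%), and for cortex against hippocampus 1 of 9 (3.95%). By DESeq2 none of the 9 passed the adjusted threshold. At its unadjusted p under 0.05 there were 3 (13.8% of tested rows), 3 (11.7%), 2 (12.5%) and 1 (3.2%) in the same 4 comparisons. The fitted log2 fold changes for cerebellum against forebrain had a median of -0.53 over the 9 genes and of 0.0023 over all tested rows, and 7 of the 9 lay below 0, as did 49.9% of all tested rows. Without cortex 3, hippocampus 3 and hippocampus 4, a choice made after seeing the data, 1 of the 9 passed, Dlg2 (-1.18 on the log2 scale, SE 0.38, adjusted p = 0.0231 in edgeR). In that fit cerebellum 2 is the only sample with its title code, which the fit holds as a block, so it adds nothing to the contrast, and 1 residual degree of freedom remains. Without the block and without the same 3 samples, 2 of the 9 passed, Dlg2 (-1.60, SE 0.35, adjusted p = 0.0079) and Dlg4 (-1.17, SE 0.35, adjusted p = 0.0356). These fits called 215 and 253 of 1989 tested rows.

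**Figure D1:**
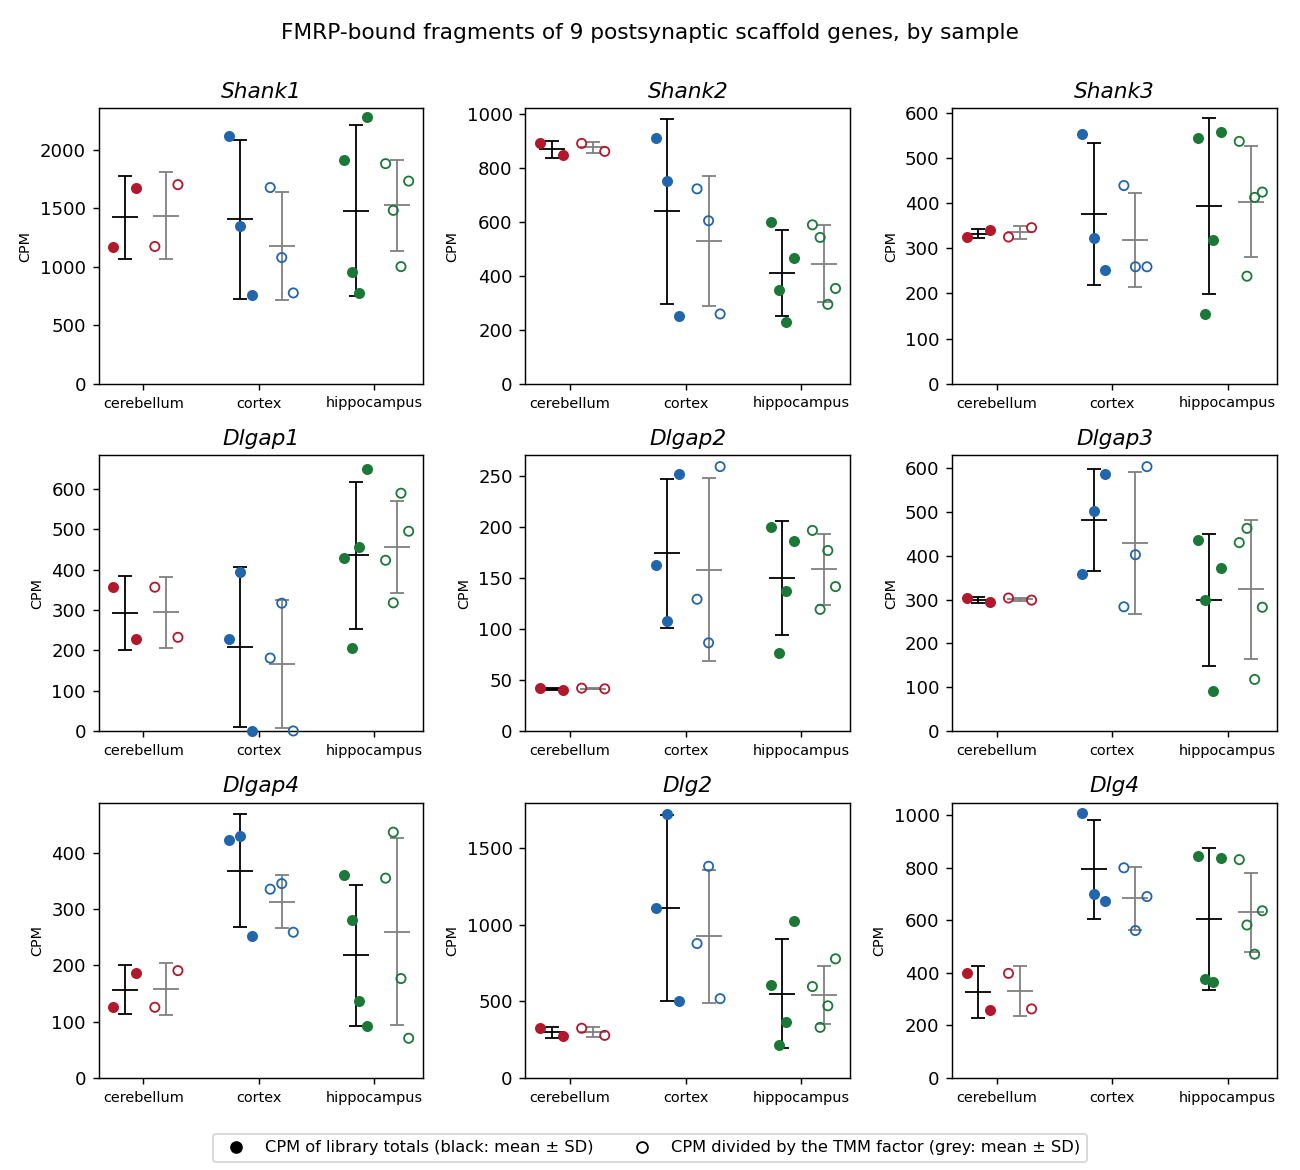
Each panel shows 1 gene, with 1 point per sample in cerebellum (n = 2), cortex (n = 3) and hippocampus (n = 4); filled points are CPM of library totals and open points are CPM divided by the TMM factor, with mean ± SD bars. Dlgap2 in cerebellum (40.5 and 41.9 CPM) lies under every forebrain sample on both scales, whereas the Shank1 and Shank3 samples of the 3 regions overlap.

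Shank1 gave the most fragments of the 9 by mean CPM. This gene, the largest family member by coding length here (6501 bases; chr7:44310253-44360572), ranked 23 among the 1720 tested rows by its mean CPM. It had 1173 and 1672 CPM in cerebellum, 2116, 1344 and 756.4 CPM in cortex, and 1911, 954.6, 774.7 and 2276 CPM in hippocampus. The samples of all 3 regions overlap, and the spread within cortex and within hippocampus exceeds any difference between the means of 1423 ± 353, 1406 ± 682 and 1479 ± 729 CPM (SD, n = 2, 3 and 4). The log2 fold change for cerebellum against forebrain was -0.18 (95% interval -1.27 to 0.91, adjusted p = 0.949 in edgeR). Its sign depended on the filter, the block and the samples. The value was 0.22 when no filter on low counts was used and 0.079 with no replicate block. Without cerebellum 1 it was 0.58, where the lone cerebellum sample is assumed to vary like the other regions. With library totals alone it stayed below 0, at -0.046.

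Shank2 (chr7:144001928-144424494), which in cerebellum is known from the postsynaptic sites of Purkinje cells, was the member with the highest positive log2 fold change in cerebellum against forebrain. It had 890.5 and 846.1 CPM in cerebellum, 911.4, 752.9 and 252.1 CPM in cortex, and 598.6, 349.5, 227.9 and 464.4 CPM in hippocampus. Both cerebellum samples lie above 6 of the 7 forebrain samples and below cortex 1. After TMM scaling the cerebellum samples, at 890.6 and 861.2, lie above all 7 forebrain samples, which reach at most 722.4; 10.8% of all tested rows are likewise higher without overlap. The fitted difference did not pass the test, at 0.44 on the log2 scale (SE 0.47, 95% interval -0.48 to 1.35, adjusted p = 0.764). Against hippocampus alone it was 0.67 (95% interval -0.25 to 1.58, adjusted p = 0.533 in edgeR), and against cortex alone 0.21 (-0.93 to 1.34, adjusted p = 0.961). The Purkinje cell markers summed to 3163.8 and 3500.8 CPM in cerebellum and to 545.5 to 1204.4 CPM in forebrain. Most of that sum is Itpr1, with 801 counts in cerebellum and 200 in forebrain. The other markers had 7 (Ppp1r17) to 70 (Rora) counts in cerebellum and 1 (Pcp2) to 50 (Rora) in forebrain. The sum is thus mainly a measure of 1 gene, and its part in the Shank2 level was not tested.

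Shank3 (chr15:89499623-89560261), a synaptic scaffold gene whose loss in humans is linked to Phelan-McDermid syndrome, had 324.8 and 339.4 CPM in cerebellum. The cortex samples had 553.4, 322.7 and 252.1 CPM, and the hippocampus samples 544.9, 153.4, 319.0 and 557.3 CPM. Values on both sides of the cerebellum pair occur in cortex and in hippocampus. The log2 fold change for cerebellum against forebrain was -0.01 (95% interval -1.03 to 1.005, adjusted p = 0.996 in edgeR). Among samples of the same title code the sign differed for Shank3 and Shank1. The log2 ratio of CPM was -0.76 for Shank3 and -0.78 for Shank1 for cerebellum 1 against its forebrain samples. It was 1.15 and 0.81 for cerebellum 2 against hippocampus 3, the one forebrain sample sharing its code. After TMM scaling that last pair lies nearer, at 345.5 and 238.2 for Shank3 and at 1701.7 and 1481.9 for Shank1.

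The Dlgap genes code for the linkers between Dlg and Shank proteins. Dlgap2 (chr8:14095865-14847680) had the lowest counts of the 9. It had 41.9 and 40.5 CPM in cerebellum, from 4 and 8 counts. The cortex samples had 162.8, 107.6 and 252.1 CPM from 5, 6 and 3 counts, and the hippocampus samples 199.5, 76.7, 136.7 and 185.8 CPM from 26, 9, 3 and 4 counts. Dlgap2 was the only member whose cerebellum samples both lie below all 7 forebrain samples in CPM of library totals, an order that 4.3% of all tested rows share. Its log2 fold change was -1.61 (SE 0.81, 95% interval -3.20 to -0.02, adjusted p = 0.27 in edgeR) against forebrain and -1.81 (SE 0.78, adjusted p = 0.167) against hippocampus. Without the block and the 3 samples named above, the value against hippocampus was -2.11 (SE 0.60, adjusted p = 0.0472). Within the title codes the log2 ratio of CPM was -2.11 for cerebellum 1 and -0.92 for cerebellum 2.

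Dlgap4 (chr2:156613705-156764363) came nearest to the threshold. It had 125.7 and 187.5 CPM in cerebellum, 423.2, 430.2 and 252.1 CPM in cortex, and 360.7, 281.3, 136.7 and 92.9 CPM in hippocampus. All 3 cortex samples lie above both cerebellum samples, whereas hippocampus 4 and hippocampus 5, at 3 and 2 counts, do not. In the fit its log2 difference was -1.52 (SE 0.55, 95% interval -2.60 to -0.45, adjusted p = 0.0664 in edgeR) against forebrain, -1.85 (SE 0.68, adjusted p = 0.0958) against cortex and -1.20 (SE 0.53, adjusted p = 0.18) against hippocampus. It passed against forebrain when cortex 3 was left out (-1.50, adjusted p = 0.0485) and when hippocampus 1 and 2 were kept as separate libraries (-1.53, adjusted p = 0.0204). The second fit counts 2 libraries that differed by no more than sampling noise as independent. Without the block the value was -0.93 (adjusted p = 0.31), and by DESeq2 it was -1.54 (adjusted p = 0.166).

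Dlgap1 (chr17:69969073-70821413) was the only member with an unadjusted p under 0.05 between cortex and hippocampus, where 3.95% of all tested rows had one. It had 356.2 and 228.0 CPM in cerebellum, 227.9, 394.4 and 0 CPM in cortex, and 429.8, 204.6, 455.7 and 650.2 CPM in hippocampus. The 0 in cortex 3 allows up to 252.1 CPM at its depth, which is below the values of 5 other samples and above those of cerebellum 2, cortex 1 and hippocampus 3. Cortex against hippocampus gave a log2 difference of -1.20 (SE 0.51, adjusted p = 0.999 in edgeR), and for cerebellum against forebrain it was 0.27 (95% interval -0.73 to 1.26, adjusted p = 0.903).

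Dlgap3 (chr4:127169204-127237022), whose deletion in mice is known to cause excessive grooming, had 303.8 and 293.8 CPM in cerebellum. It had 358.1, 501.9 and 588.3 CPM in cortex, and 437.4, 298.3, 91.1 and 371.6 CPM in hippocampus. The cerebellum pair lies below all 3 cortex samples and within the range of hippocampus. After TMM scaling the pair also falls within cortex, where cortex 1 is at 283.8. The log2 fold change for cerebellum against forebrain was -0.53 (95% interval -1.51 to 0.44, adjusted p = 0.701 in edgeR), and against cortex it was -0.68 (95% interval -1.91 to 0.54, adjusted p = 0.753).

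**Figure D2:**
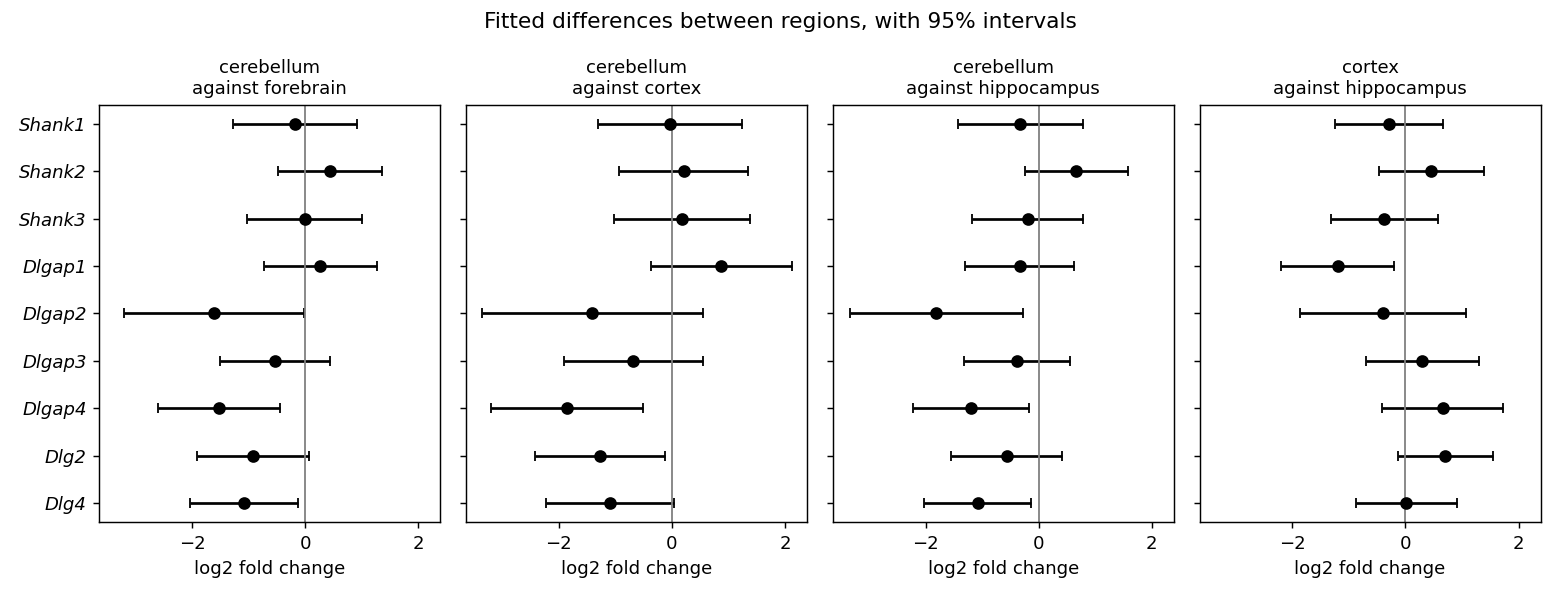
Points are the fitted log2 fold changes of the 9 genes in 4 comparisons, with 95% intervals from edgeR; positive values are higher in the region named first. For cerebellum against forebrain the intervals of Dlgap2, Dlgap4 and Dlg4 lie below 0, and none of the 9 genes passed an adjusted p of 0.05 in any panel.

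The Dlg genes code for the membrane-side scaffolds. Dlg4 (chr11:70016942-70047522), which encodes PSD-95, the scaffold that anchors AMPA and NMDA receptor complexes, had 398.1 and 258.4 CPM in cerebellum. It had 1009.1, 699.1 and 672.4 CPM in cortex, and 844.2, 375.0, 364.6 and 836.0 CPM in hippocampus. All cortex samples lie above both cerebellum samples, and hippocampus 3 and hippocampus 4 lie between these. After TMM scaling all 7 forebrain samples, at 471.3 to 830.9, lie above the cerebellum samples at 398.2 and 263.0; Dlgap2, Dlg2 and Dlg4 are lower without overlap on that scale, as are 5% of all tested rows. In cerebellum its fitted log2 fold change was -1.09 (SE 0.49, 95% interval -2.04 to -0.13, adjusted p = 0.185 in edgeR) against forebrain, -1.09 (SE 0.58, adjusted p = 0.377) against cortex and -1.08 (SE 0.48, adjusted p = 0.191) against hippocampus. Over 17 alternatives the value against forebrain stayed between -1.17 and -0.71.

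Dlg2, a close relative of Dlg4 in the same guanylate kinase family, had 324.8 and 273.6 CPM in cerebellum. It had 1106.7, 1720.9 and 504.3 CPM in cortex, and 606.3, 213.1, 364.6 and 1021.8 CPM in hippocampus. All forebrain samples except hippocampus 3 lie above both cerebellum samples, and after TMM scaling hippocampus 3, at 330.8, does too. Fitted log2 fold changes were -0.92 (SE 0.51, 95% interval -1.91 to 0.07, adjusted p = 0.341 in edgeR) against forebrain, -1.27 (SE 0.59, adjusted p = 0.268) against cortex and -0.57 (SE 0.50, adjusted p = 0.652) against hippocampus. Within its title code, cerebellum 2 against hippocampus 3 alone gave a log2 ratio of CPM of 0.36. After TMM scaling that pair is at 278.5 and 330.8, the other way round. Cerebellum 1 against the forebrain samples of its code gave a log2 ratio of CPM of -1.40. The Dlg2 row is the hardest of the 9 to assign: the GRCm38 annotation places 30 other genes inside its span at chr7:90476672-92449247, 8 of them antisense, and the use of strand in counting is not given in the sources used here. No other gene overlaps Dlg4 or Dlgap3, and the remaining 6 overlap 1 (Shank3) to 4 (Dlgap2) others.

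The make-up of the fragments within the 9 genes needs no library scale. Shank2 made up 22.6% and 20.4% of the 9-gene counts in cerebellum and 7.14% to 13.3% in the 7 forebrain samples. Dlg4 made up 10.1% and 6.24% in cerebellum and 11.1% to 19.0% in forebrain, and Dlgap2 1.06% and 0.979% in cerebellum and 1.71% to 7.14% in forebrain. These 3 genes do not overlap between cerebellum and forebrain on this measure, and the other 6 do. Of all tested rows, set against the same 9-gene sum, 15.2% are higher and 3.6% lower in cerebellum without overlap, beside 1 and 2 of the 9 genes. The counts behind the shares are 376 and 817 in cerebellum and 42 (cortex 3) to 773 (hippocampus 1+2) in forebrain. By family, Shank genes gave 60.6% and 69.0% in cerebellum and 35.7% to 52.1% in forebrain. Of these only Shank2 did not overlap by itself. Shank1 gave 29.8% and 40.4% in cerebellum and 21.4% to 35.3% in forebrain, and Shank3 overlapped too. Dlg genes gave 18.4% and 12.9% in cerebellum, 30.8%, 38.6% and 33.3% in cortex and 24.5%, 20.2%, 25.4% and 28.8% in hippocampus. Dlgap genes gave 21.0% and 18.1% in cerebellum and 17.1% to 31.0% in forebrain, with overlap. Shares within a fixed total depend on each other, and this measure was chosen after the values were seen, so it is given with no test.

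**Figure D3:**
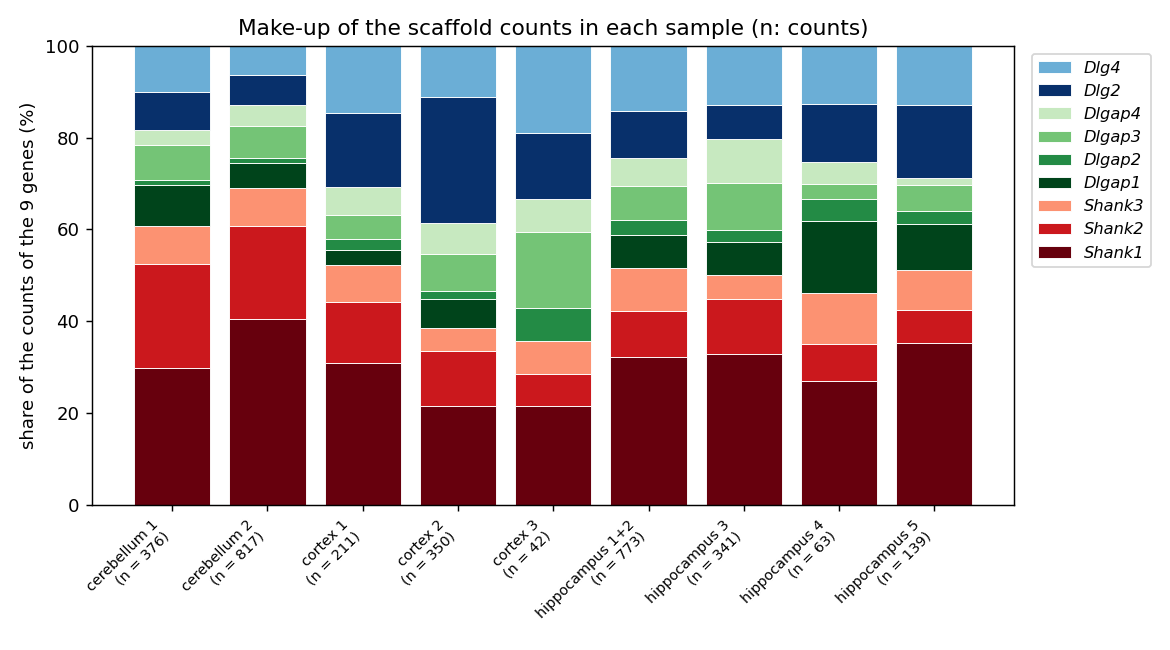
Each bar is 1 sample and shows the share (%) of the summed counts of the 9 genes that each gene took, with the summed count n under the bar. The red Shank shades fill 60.6% and 69.0% of the cerebellum bars and 35.7% to 52.1% of the forebrain bars, and the blue Dlg shades are narrower in both cerebellum bars than in every forebrain bar. By itself, only Shank2 of the Shank genes and only Dlg4 of the Dlg genes do not overlap.

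The 9 genes together took 3939 and 4139 CPM in cerebellum, 6868, 6274 and 3530 CPM in cortex, and 5932, 2907, 2871 and 6456 CPM in hippocampus. The 3 lowest of these 9 sums are the 3 samples with few counts on tested rows. After TMM scaling the sums were 3940 and 4213 in cerebellum and 3625 to 5839 in forebrain, with overlap. Per kilobase of the transcript with the longest coding sequence, mean levels in cerebellum ran from 10.7 ± 0.25 CPM (Dlgap2) to 145 ± 36 CPM (Shank1; SD, n = 2). In cortex they ran from 44.0 ± 42.0 (Dlgap1) to 232 ± 55 (Dlg4; SD, n = 3), and in hippocampus from 39.0 ± 14.5 (Dlgap2) to 177 ± 80 (Dlg4; SD, n = 4). Dlg4 per kilobase was at 96.1 ± 28.9 CPM in cerebellum, next to Shank2 at 96.6 ± 3.49 CPM, and their order differed between the cerebellum samples. Shank1 per kilobase was at 143 ± 69 CPM in cortex and 151 ± 74 CPM in hippocampus. By its mean it was second to Dlg4 in both, and Dlg4 also lay above Shank1 within each cortex and hippocampus sample. The SD between samples includes the library scale, which genes of the same sample share, so it does not measure how far 2 genes differ. In cortex Dlg2, at 142 ± 78 CPM, was near Shank1 by its mean, and the order of these genes differed between the samples. Per kilobase of coding sequence the cortex means ran in another order, with Dlg2 at 386.9, Dlg4 at 344.9 and Shank1 at 216.2 CPM.

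Genes of proteins that bind these scaffolds were read from the same fit for cerebellum against forebrain. Of 18 tested genes for Dlg-binding proteins, 1 rose and 4 fell in cerebellum, with a median log2 fold change of -0.36. Of 8 tested genes for Shank-binding proteins, 1 rose and 1 fell (median -0.16), and of 5 other tested genes of the guanylate kinase and Dlgap families none passed (median -0.05). Over all tested rows, 3.9% rose and 3.78% fell. Without cortex 3, hippocampus 3 and hippocampus 4, 3 rose and 5 fell of 19 tested Dlg-binding genes, and the Shank-binding counts stayed at 1 and 1, of 7 tested. In that blocked fit, as above, cerebellum 2 adds nothing and 1 residual degree of freedom remains. None of the Dlg-binding genes passed without cerebellum 1, without cerebellum 2 or without cortex 1, and none of the Shank-binding genes passed without any one of these or without hippocampus 5. Without hippocampus 5, 1 Dlg-binding gene fell and none rose. Leaving out cortex 2 alone, or hippocampus 4 alone, gave 1 that rose and 2 that fell, and hippocampus 1+2 alone 0 and 3. Leaving out hippocampus 3 alone gave 2 and 3, but there too cerebellum 2 is the only sample with its title code. Cerebellum 2 then adds nothing to the contrast. With no TMM factors, with no filter or with s-titled libraries only none of the Dlg-binding genes passed. By DESeq2 3 fell and none rose, and with no replicate block 2 rose and 2 fell; in both, 1 Shank-binding gene fell and none rose, and with no filter none of that list passed.

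Lrrc7, which encodes densin, a protein that binds Shank, had 146.7 and 172.3 CPM in cerebellum, 878.9, 842.5 and 336.2 CPM in cortex and 706.0, 358.0, 319.0 and 1114.7 CPM in hippocampus. It was lower in cerebellum than in every forebrain sample, and fell there by 1.93 on the log2 scale (adjusted p = 0.0051 in edgeR, SE 0.52). Homer2, whose protein links Shank to group I metabotropic glutamate receptors, had 282.9 and 172.3 CPM in cerebellum, 32.6, 17.9 and 168.1 CPM in cortex and 38.4, 93.8, 91.1 and 278.7 CPM in hippocampus. It rose in cerebellum by 2.34 on the log2 scale (adjusted p = 0.0203 in edgeR, SE 0.73), although hippocampus 5 lies between the cerebellum samples. Homer2 passed in 8 of 17 alternatives, and not by DESeq2, with no replicate block or with no filter, nor without cerebellum 1, cerebellum 2, cortex 1, cortex 2, hippocampus 1+2 or hippocampus 5. Lrrc7 passed in 9 of 17, and not without TMM factors, with no filter or with s-titled libraries only, nor without cerebellum 1, cerebellum 2, cortex 1, hippocampus 4 or hippocampus 5. In each cortex sample the Homer2 value rests on at most 2 counts. Of the Shank-binding genes that did not pass, Baiap2 had the lowest value (-0.88, SE 0.98) and Sptan1, for a spectrin, the highest (0.31, SE 0.55).

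Among the Dlg-binding genes, Grin2b, for an NMDA receptor subunit whose tail binds PSD-95, had 335.2 and 324.2 CPM in cerebellum. It had 1529.9, 1201.1 and 504.3 CPM in cortex and 1059.0, 758.6, 273.4 and 789.6 CPM in hippocampus, so that hippocampus 4 alone lies below the cerebellum pair. It fell in cerebellum by 1.89 on the log2 scale (SE 0.51, adjusted p = 0.0056 in edgeR). Sipa1l1, for a Rap GTPase-activating protein, fell by 2.14 to 73.3 and 91.2 CPM in cerebellum, against 204.6 to 650.2 CPM in forebrain. Nlgn1, for a postsynaptic adhesion molecule, fell by 2.12 to 83.8 and 55.7 CPM in cerebellum, against 45.6 CPM in hippocampus 4 and 107.6 to 315.4 CPM in the other forebrain samples. The Nlgn1 call was lost by DESeq2, with no replicate block and without cortex 3, hippocampus 3 and hippocampus 4 together. Kalrn, for a guanine nucleotide exchange factor, fell by 1.74 to 167.6 and 293.8 CPM in cerebellum, against 434.7 to 1161.1 CPM in forebrain, with no overlap. Nos1, for the neuronal nitric oxide synthase that binds PSD-95, rose by 1.89 on the log2 scale (SE 0.57, adjusted p = 0.0158 in edgeR). It had 387.6 and 420.5 CPM in cerebellum, against 84.0 to 97.7 CPM in cortex and 127.9 to 232.2 CPM in hippocampus, with no overlap. Of the alternatives in which each was tested, Sipa1l1 passed in 11 of 17, Kalrn in 8 of 17, Grin2b and Nos1 in 7 of 17 each and Nlgn1 in 4 of 15. The Nos1 call was lost by DESeq2, and the Grin2b call with no replicate block. Of those that did not pass, Adgrb1 was lowest (-1.24, SE 0.47, adjusted p = 0.0898) and Adam22 highest (1.34, SE 0.49, adjusted p = 0.0735). Of the other guanylate kinase genes, Dlg5 was at -0.22 (SE 0.57) and Cask at 0.21 (SE 0.55).

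**Figure D4:**
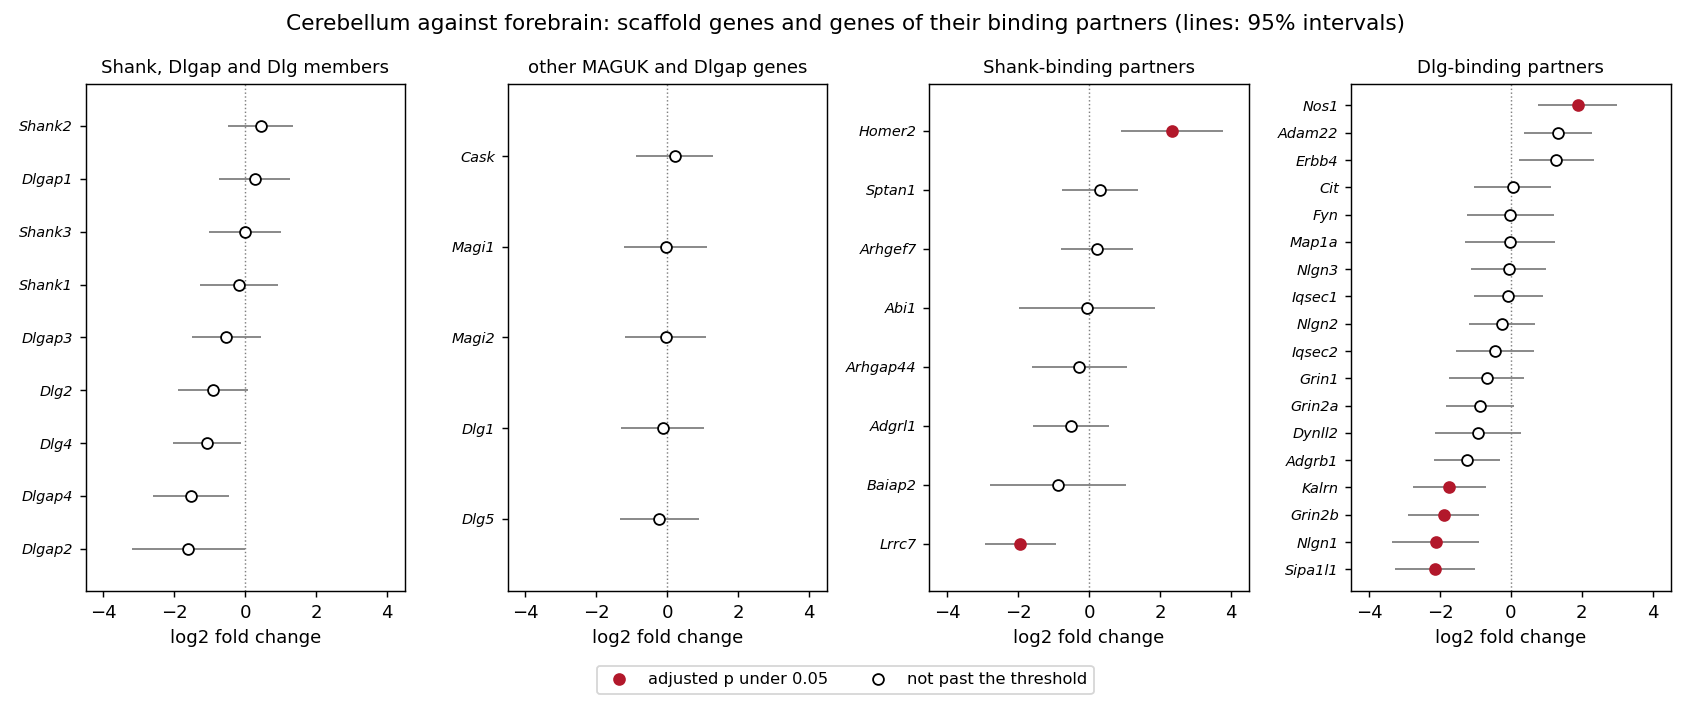
Log2 fold changes for cerebellum against forebrain are shown with 95% intervals for the 9 scaffold genes and for tested genes of 3 further lists; red points passed an adjusted p of 0.05. The red points are Homer2 and Lrrc7 among Shank-binding genes, and Nos1 above 0 and Kalrn, Grin2b, Nlgn1 and Sipa1l1 below 0 among Dlg-binding genes.

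The tested rows outside the 9 whose levels ran most like those of each family over the 9 samples were named by Pearson's r of log2(CPM + 10). For the Shank sum these were Wnk1 (r = 0.966), Anapc1 (0.961) and Fmn2 (0.958), and for the Dlg sum Nav3 (0.958), Csrnp3 (0.957) and Map2 (0.956). For the Dlgap sum they included Chd5 (0.926) and Rapgef5 (0.914). With the Dlgap sum, the Dlgap genes themselves ran at r = 0.078 (Dlgap1), 0.692 (Dlgap2), 0.618 (Dlgap3) and 0.454 (Dlgap4), Dlg2 and Dlg4 at 0.857 and 0.904, and Shank1, Shank2 and Shank3 at 0.477, 0.141 and 0.537. These are descriptions over 9 samples, and the genes share the library totals and the share of counts on tested rows, which differ between samples.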

How the data were processed

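The authors deposited whole-number fragment counts by gene symbol (11 libraries). Per the submitters' processing notes, the build was mm10 and the tools included Bowtie 0.12.7 and Picard. Which program counted, on which annotation, with or without strand and duplicates, is not given in the sources, so reads of overlapping or antisense genes may be mixed. One library whose title names cortex and whose tissue label names hippocampus entered no comparison. Hippocampus 1 and 2 were summed, because their difference was within sampling noise (1873 rows of expected count 5 or more gave a chi-square of 1.03 per degree of freedom, p = 0.191). For the other 13 same-region pairs this value was 1.51 to 22.1. This left 9 samples.

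The test was edgeR's quasi-likelihood test (edgeR 4.0.16, R 4.3.3) with library totals, TMM factors, filterByExpr by region and Benjamini-Hochberg adjustment over 1720 rows. The fit left 4 residual degrees of freedom per gene. Its spread was in effect pooled over all tested rows, so these 4 add little to a gene's p or interval. For Shank1 against forebrain, the half-width of 1.09 at an SE of 0.557 is that of a normal interval. The title code, whose meaning the labels do not give, was a block. Across genes, which are no replicates, deviations from region means had a median r of 0.13 in 8 pairs of the same code (-0.05 to 0.45) and of -0.05 in 18 pairs of different codes. An approximate SE was taken from the log2 fold change and the square root of F. DESeq2 1.42.0 was an alternative, and the test was tried on simulated data. CPM use totals of 11898 to 197382 counts; a 0 allows up to 3 counts, counting error only. The members and lists were chosen with earlier results of these data known. Named are all 9 members, the partner genes that passed, the largest non-passing gene per list and direction, and 3 genes of like pattern per family. One gene of the Dlg-binding list, which is also one of the genes of like pattern, is not reported here and is left out of the counts for that list.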

Additional observations from a re-analysis of the deposited data

Results flagged for a closer look

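The library whose title names cortex and whose tissue label names hippocampus (30344 counts) stands outside every comparison, and fragments of 8 of the 9 genes lay above the limit that a count of 0 allows there (98.9 CPM). It held 823.9 CPM for Shank1, 593.2 for Shank2 and 296.6 for Shank3. The Dlgap genes had 197.7 (Dlgap1), 362.5 (Dlgap3) and 230.7 CPM (Dlgap4), and the Dlg genes 725.0 (Dlg2) and 659.1 CPM (Dlg4). The 9 genes together had 3988 CPM. Dlgap2, from 3 counts, was at that limit. Shank2 made up 14.9% and Dlg4 16.5% of the 121 counts of the 9 genes in this library. Both of its labels name a forebrain region. Its Shank2 share lies above the 7.14% to 13.3% of the forebrain samples and below the 20.4% and 22.6% of cerebellum. Its Dlg4 share lies within the forebrain range, and its Shank1 share of 20.7% just below the lowest forebrain value of 21.4%. No sample of the 9 genes stood apart within hippocampus by the ratio of its gap to the range, the only region with enough samples for that check.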

How the results depend on the processing

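Over 604 recomputed member log2 fold changes, 548 kept their direction and their side of the threshold, 10 newly passed it and 46 changed sign, none of which passed the threshold. The cause was not tested except where a setting's construction shows it. The counts of rows called, in the order cerebellum against forebrain, against cortex and against hippocampus, were 132, 79 and 110, with 0 for cortex against hippocampus. They were 54, 16 and 45 with library totals alone, 87, 43 and 70 by DESeq2 (1 for cortex against hippocampus) and 1, 0 and 0 with no filter, which tests 30818 rows. Keeping 10 libraries apart gave 185, 118 and 187 (1 for cortex against hippocampus). Using only the libraries whose titles begin with s gave 85, 5 and 113. Without cortex 3, hippocampus 3 and hippocampus 4 they were 215, 142 and 185 (3 for cortex against hippocampus), and without the replicate block as well 253, 201 and 127. The replicate block alone changed no member's call and moved the counts to 156, 114 and 83. Leaving out 1 sample gave 2 to 176, 0 to 117, 5 to 191 and 0 to 1 rows in the 4 comparisons. The lowest counts against forebrain came without cerebellum 1, without cortex 1 (15) and without cerebellum 2. Without either cerebellum sample, 1 cerebellum sample remains. Cortex 1 is the only cortex sample that shares a title code with a cerebellum sample. The count was 81 without hippocampus 1+2 (42 against hippocampus) and 88 without hippocampus 5. Without hippocampus 3, cerebellum 2 is the only sample with its title code and adds nothing to the cerebellum contrasts.

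Members called numbered 0 to 1 against forebrain when 1 sample was left out (1 without cortex 3). They numbered 1 against forebrain and 1 against cortex with 10 libraries apart (Dlgap4 in both). Without the 3 samples they numbered 1 in each of the 3 cerebellum comparisons, namely Dlg2 against forebrain and against cortex (-1.52, adjusted p = 0.0085 in edgeR) and Dlg4 against hippocampus (-1.09, adjusted p = 0.0485). Without the block as well they numbered 2, 1 and 1, with Dlg2 against cortex at -1.99 (adjusted p = 0.0069).

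Sign changes among log2 fold changes were these. With library totals alone the median of all rows was 0.12 against forebrain, 0.020 against cortex and 0.23 against hippocampus. There Shank3 was at 0.11 against forebrain and 0.052 against hippocampus, and Shank1 at 0.0038 against cortex. With no filter these medians were 0.27, 0.51 and -0.086. Shank1 was then at 0.22, 0.30 and 0.14 against forebrain, cortex and hippocampus, and Shank3 at 0.38 and 0.27 against forebrain and hippocampus. Against hippocampus Dlgap1 was at 0.14 and Dlgap3 at 0.089. With no replicate block, Shank1 was at 0.079 and 0.26 against forebrain and cortex, and Dlgap1 at -0.071 against forebrain. With titles beginning with s, Shank3 was at 0.054 and 0.084 against forebrain and hippocampus and Dlgap3 at 0.17 against cortex, while for cortex against hippocampus Shank1 was at 0.13, Shank3 at 0.061 and Dlgap3 at -0.52. Without the 3 samples, Shank3 was at -0.33 against cortex, and for cortex against hippocampus Dlgap3 was at -0.13 and Dlg4 at -0.10. Without the block as well, Shank1 was at 0.038 and Shank3 at -0.056 against cortex, Dlgap1 at -0.30 against forebrain, and for cortex against hippocampus Dlgap3 at -0.082 and Dlg4 at -0.16. With 10 libraries apart, Dlg4 was at -0.019 for cortex against hippocampus. Leaving out 1 sample, Shank1 ran from -0.57 to 0.58 against forebrain, -0.36 to 0.81 against cortex and -0.77 to 0.35 against hippocampus, and Shank3 from -0.53 to 0.96, -0.27 to 1.23 and -0.79 to 0.69. For cortex against hippocampus Shank1 ran from -0.50 to 0.095 and Dlg4 from -0.038 to 0.22 (-0.037 without hippocampus 1+2).

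The fit against forebrain had 2 cerebellum samples and totals down to 11898 counts. The 95% intervals of the members span 1.83 (Shank2) to 3.19 (Dlgap2) log2 units there. Each interval gives the fold changes compatible with the data, with the spread pooled over the tested rows, and is not a limit of detection. A member that did not pass is therefore not shown to be equal between the regions.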

Other observations

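Hippocampus 1 and hippocampus 2, which were summed above, had 172 and 77 counts for Shank1, 72 and 38 for Dlg4, 53 and 26 for Dlg2, 50 and 28 for Shank2 and 34 and 13 for Dlgap4, of 82567 and 47739 counts in all.

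Markers of other cell types in the same samples, for cerebellum against forebrain, were as follows. Slc1a2, the main astrocyte glutamate transporter, was the 1 of 4 tested astrocyte markers that passed and fell by 2.41 on the log2 scale (adjusted p = 0.0051 in edgeR). The astrocyte list summed to 1545.2 and 1561.0 CPM in cerebellum and to 588.3 to 5573.4 CPM in forebrain. The GABAergic interneuron list summed to 947.4 and 953.3 CPM in cerebellum and to 588.3 to 1075.6 CPM in forebrain, with 1 of 3 tested markers higher. The Purkinje list had 1 of 3 tested markers higher, Itpr1. None of 3 tested hippocampal neuron markers and none of 2 tested oligodendrocyte markers passed.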
